A study of Rattus norvegicus with 12 samples.

Results

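The genes described here build the extracellular matrix of the brain: collagens, laminins, other basement membrane proteins, matrix glycoproteins, and the enzymes that mature collagen. They were chosen by name. Every probe set assigned to exactly 1 gene was taken if the symbol was that of a collagen or laminin chain or was 1 of 24 further matrix genes. This gave 103 probe sets of 74 genes, out of 31099 probe sets on the array. Of the names in the rule, Thbs1 had no such probe set.

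The samples were left brain hemispheres of 12 male Sprague-Dawley rats aged 8 weeks, 1 array per rat. Stroke was modelled in 7 of them by blocking the middle cerebral artery and letting blood flow return (MCAO), and the other 5 were sham-operated (Sham). Brains were collected at 24 h of reperfusion. The sources used here give neither the side nor the length of the occlusion, and a whole hemisphere holds both injured and spared tissue. The 1 comparison of the design asks how brain mRNA differs after the occlusion. Values are log2 signals as deposited, so a difference of 1 is a doubling, and levels of different genes cannot be compared on this scale.

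Laminins and collagen IV form separate networks that nidogen and perlecan join into the basement membrane around brain vessels. Collagen IV is a trimer of 3 chains, most often built from the products of Col4a1 and Col4a2, and laminins are trimers of an alpha, a beta and a gamma chain. Fibril-forming collagens are sparse in brain tissue and lie mainly in the meninges and around larger vessels. Fibronectin and tenascin-C are matrix glycoproteins of wounds, and the enzyme lysyl oxidase crosslinks collagen and elastin. Vascular cells, perivascular fibroblasts and astrocytes all contribute to this matrix.

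Much of the array cannot inform on these genes. Of the 103 probe sets, 55 were near-constant, with an SD over the 12 arrays under 0.01. Such values occur at all brightness levels in the deposited table, so a near-constant probe set shows neither that the transcript was absent nor that it was the same in both groups. In all, 82 of the 103 probe sets passed the filter on low values (above 6.61 in at least 5 arrays). Of these, 4 had no Sham array above the filter and passed through the MCAO arrays alone, namely both probe sets of Lox and 1 each of Fbn1 and Col15a1. The genes without a probe set past the filter were Col4a4, Col6a6, Col9a1, Col10a1, Col17a1, Loxl2 and Thbs4. That left 67 tested genes, 38 varying and 29 near-constant.

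Among the 38 varying genes, 17 rose and 6 fell in MCAO (limma adjusted p under 0.05), which is 44.7% and 15.8%. Over all 6339 varying genes tested, 35.2% were called higher and 34.2% lower. The counts by role given below rest on few genes and are to be read beside these shares. A call is therefore common in these data, and the share of members called in either direction (60.5%) was below that of all varying genes (69.3%). The median log2 difference was 0.30 over the 38 genes and 0.03 over all varying genes. Of the 38 genes, 4 rose at least 2-fold (10.5%, against 3.44% of all varying genes), namely Lox, Tnc, Fbn1 and Fbln2, and none fell 2-fold. The groups were fully apart for 6 of the 17 genes that rose, 15.8% of the members against 17.8% of all varying genes. The same held for 1 of the 6 that fell, 2.63% against 16.2%. Lox passed the filter through its MCAO values alone. It is counted among the 17 genes that rose, the 6 with groups apart and the 4 at 2-fold, and adds no support to these shares. Another 8 near-constant genes passed the test (17.1% of near-constant genes overall did), which brings the calls to 31 of 67 tested members, against 44.3% of all tested genes, but no near-constant member differed by more than 0.0024, and these sizes are not interpreted.

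**Figure D1:**
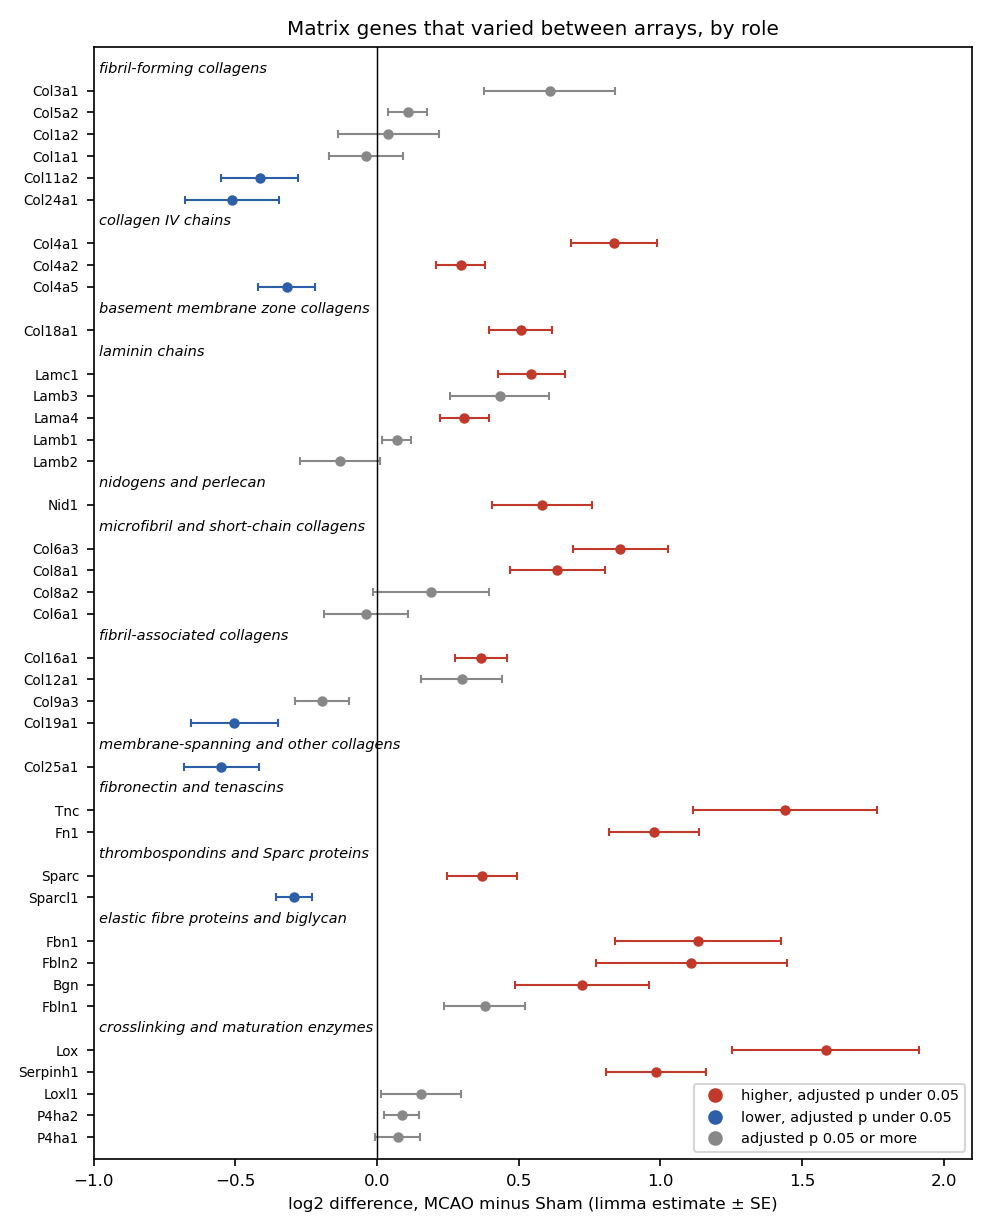
Log2 difference (MCAO minus Sham, limma estimate with its standard error as bars) of the 38 varying matrix genes, grouped by role. Red points passed at higher signal (17 genes), blue points at lower signal (6 genes), and grey points did not pass. Tnc, Lox, Fbn1 and Fbln2 lie beyond 1, while Col1a1 and Col1a2 lie near 0.

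The collagen IV chains, the sheet-forming collagens of basement membranes, went in both directions. Col4a1 (Entrez Gene 290905) measured 7.33, 7.35, 7.41, 7.48 and 7.32 in Sham 1 to 5 and 7.70 to 8.67 (median 8.21) in the 7 MCAO rats. The groups did not overlap, and the log2 difference was 0.84 ± 0.15 (SE; limma adjusted p = 0.00256), a 1.79-fold rise. Col4a2 (Entrez Gene 306628) stood at 7.33, 7.36, 7.29, 7.38 and 7.30 in Sham and at 7.31 to 7.89 (median 7.63) in MCAO. It rose by 0.29 ± 0.09 (adjusted p = 0.0192), with MCAO 4 alone inside the Sham range. Col4a5, a chain of another collagen IV trimer, fell by 0.32 (SE 0.10; adjusted p = 0.0264), from 8.25, 8.23, 8.45, 8.36 and 8.52 to 7.83 to 8.45 (median 8.02). MCAO 4 was the highest of the MCAO rats for Col4a5 and the 1 that lay within the Sham range. The Col4a5 call was lost without MCAO 5, Sham 3, Sham 4 or Sham 5 (adjusted p = 0.0511 to 0.065). Col4a6 was near-constant.

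Col4a1 and Col4a2 are read in opposite directions from neighbouring start sites, so the region between them serves as the upstream sequence of both. In the RefSeq assembly GRCr8 the start sites lie 76 bases apart on chromosome 16, at 84885597 (Col4a1, plus strand) and 84885520 (Col4a2, minus strand). Their whole intergenic sequence is shown because both genes rose, Col4a1 by a larger estimate than Col4a2 (the difference between them was not tested). It is written on the plus strand, chr16:84885521-84885596, with a GC box (GGGCGG on either strand) in capitals:
Col4a1-Col4a2: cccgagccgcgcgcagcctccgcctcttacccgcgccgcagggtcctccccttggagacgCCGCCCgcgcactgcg
A GC box was present in 19.3% of all 27457 promoters in the 76 bases before the start site. The letters CCAAT and TATAAA did not occur between the 2 start sites on either strand, and 13% and 4.78% of all promoters hold them in a window of that length. Col4a5 and Col4a6 are also arranged head to head, on chromosome X, but with 1414 bases between their start sites.

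Of the other basement membrane genes that varied, Lamc1, Lama4, Nid1 and Col18a1 were called higher, and Lamb1, Lamb2 and Lamb3 did not pass. Lamc1 (Entrez Gene 117036), the gamma chain of most laminins, measured 8.19, 8.27, 8.38, 8.49 and 8.27 in Sham and 8.48 to 9.16 (median 8.88) in MCAO. Only MCAO 4 fell within the Sham range, and the difference was 0.54 ± 0.12 (adjusted p = 0.00518). Lama4, the alpha chain of an endothelial laminin, went from 7.48, 7.45, 7.54, 7.47 and 7.37 to 7.49 to 8.03 (median 7.82), a rise of 0.31 ± 0.09 (adjusted p = 0.0154). Again MCAO 4 was the lowest and overlapped the Sham rats. Lamb3, an epithelial beta chain, read 6.52, 6.70, 6.77, 6.59 and 6.61 in Sham and 6.57 to 7.75 (median 7.10) in MCAO, and its difference of 0.43 ± 0.17 did not pass (adjusted p = 0.0662), with MCAO 4 and MCAO 7 inside the Sham range. It passed without MCAO 4 or MCAO 7 (adjusted p = 0.0217 to 0.0423) and with array weights (0.48, adjusted p = 0.0028). Lamb1 (0.07 ± 0.05) and Lamb2 (-0.13 ± 0.14), the beta chains of vascular laminins, did not pass either, although Lamb2 passed at -0.25 with array weights (adjusted p = 0.0418). Among the laminin chains 2 of 5 varying genes rose, against 35.2% of all varying genes, and Lama1, Lama2, Lama3, Lama5 and Lamc3 were near-constant.

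Nid1 (Entrez Gene 25494), nidogen-1, links the laminin and collagen IV networks. It measured 7.49, 7.82, 7.75, 7.82 and 7.87 in Sham and 7.82 to 8.66 (median 8.56) in MCAO. MCAO 1 and MCAO 4, at 7.82 and 7.84, lay inside the Sham range while the other 5 lay above it, and the difference was 0.58 ± 0.18 (adjusted p = 0.022). That call was lost without Sham 1, the lowest Sham value (adjusted p = 0.0546), and in the exact rank-sum test. Col18a1 (Entrez Gene 85251), the source of endostatin, rose by 0.51 ± 0.11 (adjusted p = 0.00551), from 6.88, 6.87, 6.90, 6.99 and 7.13 to 7.22 to 7.87 (median 7.34). The groups did not overlap. Without MCAO 3 the adjusted p was 0.0528, at a difference of 0.27, and the estimate was 0.22 to 0.31 without MCAO 1, 4, 6 or 7, because the gene's second and less changed probe set then had the higher mean and stood for it. Col15a1, a related vessel-wall collagen, was represented by a near-constant probe set. Its other, dimmer probe set read 5.81 to 6.09 in Sham and 6.32 to 7.40 (median 6.75) in MCAO. In the fit over probe sets that probe set was 0.90 ± 0.20 higher (adjusted p = 0.00643). It had no Sham array above the filter and entered that fit through its MCAO values alone, so the call adds no support. The genes of perlecan (Hspg2), nidogen-2 (Nid2) and collagen VII (Col7a1) were near-constant.

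Fibronectin and tenascin-C both rose. Fn1 (Entrez Gene 25661) had the smallest adjusted p of all members (0.00176). It measured 8.48, 8.11, 8.65, 8.52 and 8.37 in Sham 1 to 5 and 9.10 to 10.01 (median 9.34) in MCAO. The group means were 9.41 ± 0.31 (SD, n = 7) and 8.43 ± 0.20 (SD, n = 5), a 1.97-fold difference with no overlap, in which MCAO 6 was highest and MCAO 2 lowest. Tnc (Entrez Gene 116640), low in the resting adult brain and induced in injury, read 7.06, 7.39, 7.22, 7.16 and 7.08 in Sham and 7.37 to 9.42 (median 8.73) in MCAO. The log2 difference was 1.44 ± 0.33 (adjusted p = 0.00607), 2.71-fold, although MCAO 4 (7.37) remained below the highest Sham rat. Tnr, the tenascin of oligodendrocytes and perineuronal nets, was near-constant.

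**Figure D2:**
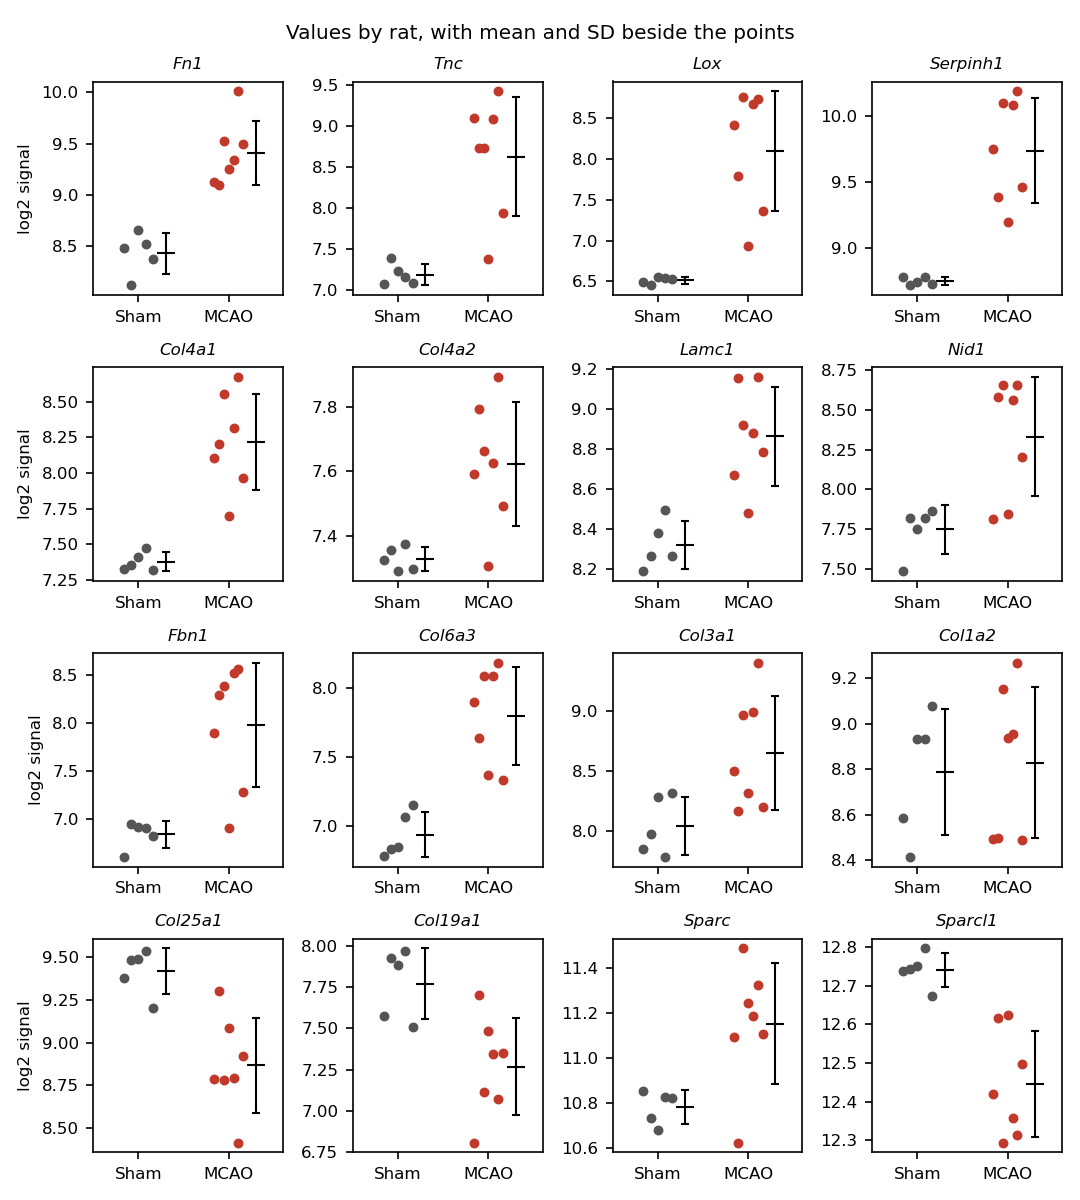
Log2 signal of 16 matrix genes in each rat (grey: 5 Sham rats, red: 7 MCAO rats), with the group mean and SD beside the points, each panel on its own axis. Fn1, Lox, Serpinh1, Col4a1, Col6a3 and Sparcl1 show no overlap between the groups, and the MCAO points are more widely spread than the Sham points in most panels.

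Of 5 varying member genes that process and crosslink collagen, Lox and Serpinh1 rose, and Loxl1, P4ha1 and P4ha2 did not pass. Lox (Entrez Gene 24914) encodes lysyl oxidase and had the largest difference of all members. It read 6.49, 6.45, 6.56, 6.54 and 6.53 in Sham and 6.93 to 8.76 (median 8.42) in MCAO. The difference was 1.58 ± 0.33 (adjusted p = 0.00429) with no overlap. All Sham values lay under the filter, so Lox entered the test through its MCAO values alone. The MCAO rats spread widely, from 6.93 in MCAO 4 and 7.37 in MCAO 7 to 8.67 in MCAO 5, 8.73 in MCAO 6 and 8.76 in MCAO 3. Loxl1, a related oxidase, differed by 0.15 ± 0.14 and did not pass, but passed at 0.30 with array weights (adjusted p = 0.0287).

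Serpinh1 (Entrez Gene 29345) encodes Hsp47, a heat-inducible chaperone of the endoplasmic reticulum that binds procollagen. It measured 8.78, 8.72, 8.74, 8.78 and 8.73 in Sham and 9.20 to 10.18 (median 9.75) in MCAO, a difference of 0.99 ± 0.18 (adjusted p = 0.00244; 1.98-fold). No MCAO rat came within the Sham range, and the SD over rats was 0.39 after MCAO (n = 7) and 0.03 after sham surgery (n = 5). The value comes from an _s_at probe set, a class that may also match other transcripts, and the gene's other probe set was near-constant. P4ha2 (0.09 ± 0.06, adjusted p = 0.282), a collagen prolyl hydroxylase subunit, read 7.82, 7.88, 7.81, 7.90 and 7.80 in Sham and 7.77 to 8.21 (median 7.92) in MCAO, with broad overlap. P4ha1 (0.07 ± 0.08, adjusted p = 0.499), the other such subunit on the list, also did not pass, and the lysyl hydroxylase genes Plod1 and Plod2 were near-constant. Outside the members, and named after their values were seen, the hydroxylase genes P4ha3 (0.67 ± 0.16, adjusted p = 0.00873) and Plod3 (0.36 ± 0.07, adjusted p = 0.00367) rose. Of prolyl hydroxylase genes also outside the members, P3h3 did not pass (-0.20 ± 0.17, adjusted p = 0.399) and P3h1 was near-constant.

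The sequence upstream of Serpinh1 is shown because heat shock factors are known to drive this gene through heat shock elements, which are alternating GAA and TTC units. The 250 bases before its start site on the minus strand, chr1:163062977-163063226 (RefSeq, GRCr8), carry in capitals a GC box and a run of 3 heat shock units:
Serpinh1: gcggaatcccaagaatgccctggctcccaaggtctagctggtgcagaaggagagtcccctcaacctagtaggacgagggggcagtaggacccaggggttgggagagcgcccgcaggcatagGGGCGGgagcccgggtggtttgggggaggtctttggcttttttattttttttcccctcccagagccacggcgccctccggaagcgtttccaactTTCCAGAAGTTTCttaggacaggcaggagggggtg
The run was searched on both strands as TTC, GAA and TTC with 2 bases of any kind between neighbouring units, and lies 35 to 23 bases before the start site. Such a run occurred in 0.597% of the 27457 promoters. A promoter sequence was at hand for 14 of the 17 genes that rose, and Serpinh1 was the 1 gene among them with this run. It includes both shorter pairs searched, TTCNNGAA and GAANNTTC. The GC box GGGCGG was found upstream of 10 of these 14 genes, 3 of the 5 with a sequence that fell, and 32.4% of all promoters. CCAAT was found in 3 of the 14 (Col4a1, Col4a2 and Nid1), none of the 5, and 34.3% of all promoters. For Col4a1 and Col4a2 the 250 bases searched reach past the start site of the partner gene. Their CCAAT matches do not lie within the 76 bases between the start sites. The GC box in those 76 bases counts for both genes. A match is a string of letters and does not show that a factor binds there.

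Of 5 tested genes of elastic fibres and collagen-binding proteoglycan, 3 rose (Fbn1, Fbln2 and Bgn), with wide spread in MCAO. Fbn1 (Entrez Gene 83727), fibrillin-1, the main microfibril protein, measured 6.61, 6.95, 6.92, 6.91 and 6.83 in Sham and 6.91 to 8.55 (median 8.29) in MCAO. It rose by 1.13 ± 0.29 (adjusted p = 0.011; 2.19-fold), with MCAO 4 inside the Sham range. Fbln2, which encodes the fibrillin-binding protein fibulin-2, went from 7.84, 7.95, 7.95, 7.83 and 7.79 to 7.92 to 9.91 (median 9.05). Its difference was 1.11 ± 0.34 (adjusted p = 0.022), and MCAO 4 overlapped the Sham rats here as well. Bgn, biglycan, a small proteoglycan that binds collagen, read 7.49, 7.48, 7.75, 7.74 and 7.86 in Sham and 7.80 to 9.07 (median 8.15) in MCAO, a rise of 0.72 ± 0.24 (adjusted p = 0.0306) with MCAO 4 inside the Sham range. Leaving out MCAO 3, MCAO 5 or any of Sham 1 to 4 ended the Bgn call (adjusted p = 0.0538 to 0.073). Fbln1, fibulin-1, differed by 0.38 ± 0.14 and did not pass (adjusted p = 0.0525), but passed without MCAO 1, MCAO 4 or MCAO 7 (adjusted p = 0.0403 to 0.0463). Fbln5 was near-constant.

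Collagens VI and VIII, which form microfibrils and hexagonal sheets, were represented by 4 varying genes, of which 2 rose. Col6a3 (Entrez Gene 367313) measured 6.79, 6.84, 6.85, 7.07 and 7.16 in Sham and 7.33 to 8.18 (median 7.90) in MCAO. Its difference was 0.86 ± 0.17 (adjusted p = 0.00338; 1.81-fold) with no overlap. Col8a1, found in vessel walls, rose by 0.64 ± 0.17 (adjusted p = 0.012), from 6.91, 6.66, 6.79, 6.99 and 7.12 to 6.93 to 7.96 (median 7.49), and MCAO 2 was within the Sham range. Its partner chain Col8a2 read 7.44, 7.33, 7.43, 7.42 and 8.04 in Sham and 7.01 to 8.22 (median 7.72) in MCAO, a difference of 0.19 ± 0.20 that did not pass (adjusted p = 0.497), with wide overlap and Sham 5 high. With array weights, which gave MCAO 2 and MCAO 4 the least weight (0.18 and 0.176), Col8a2 was higher by 0.50 (adjusted p = 0.00761). Col6a1 differed by -0.04 ± 0.15. Col6a2 and Col6a5 were near-constant.

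Of 6 varying genes of fibril-forming collagens, none was called higher and 2 were called lower, although Col3a1 lay close to the threshold. Among all varying genes, 35.2% were called higher and 34.2% lower. Col3a1, the collagen of pliable tissues and vessel walls, came nearest to a rise, at 7.85, 7.97, 8.29, 7.79 and 8.32 in Sham and 8.17 to 9.41 (median 8.51) in MCAO, with MCAO 2 and MCAO 7 inside the Sham range. Its difference of 0.61 ± 0.23 had an adjusted p of 0.053 and passed without MCAO 2, MCAO 4 or MCAO 7 (adjusted p = 0.0304 to 0.0456). Col3a1 also passed with array weights (0.83, adjusted p = 0.00148), quantile normalization (adjusted p = 0.0495) and without near-constant probe sets (adjusted p = 0.0206). Col1a1 (-0.04 ± 0.13) and Col1a2 (0.04 ± 0.18), the chains of type I collagen, and Col5a2 (0.11 ± 0.07), which joins type I fibrils, did not pass. The signs of Col1a1, Col1a2 and Col5a2 turned under some alternatives. Col24a1 read 6.39, 7.03, 7.05, 7.35 and 6.62 in Sham and 6.16 to 6.82 (median 6.34) in MCAO, and fell by 0.51 (SE 0.17; adjusted p = 0.0296). Col11a2, a cartilage-type fibril chain, fell by 0.41 (SE 0.13; adjusted p = 0.0296), from 7.39, 7.92, 7.97, 7.86 and 7.43 to 7.05 to 7.65 (median 7.27). Both distributions overlapped, with Sham 1 low for either gene. Col24a1 passed the filter in the minimum of 5 arrays (Sham 2 to 5 and MCAO 2) and was not tested without any of these. Its call was lost without MCAO 3, 5, 6 or 7 (adjusted p = 0.0505 to 0.0565), and held without MCAO 1, MCAO 4 or Sham 1. The call of Col11a2 was lost without MCAO 1, 3, 5 or 6 or Sham 2, 3 or 4 (adjusted p = 0.0509 to 0.0781). The near-constant genes here were Col2a1, Col5a1, Col5a3, Col11a1 and Col27a1.

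Among collagens that decorate fibrils or span the membrane, Col25a1 and Col19a1 were called lower and Col16a1 higher. Col25a1 (Entrez Gene 687064), a membrane collagen of neurons whose fragment binds amyloid plaques, measured 9.38, 9.49, 9.49, 9.54 and 9.20 in Sham and 8.42 to 9.30 (median 8.79) in MCAO. It fell by 0.55 (SE 0.13; adjusted p = 0.00819), and MCAO 2 was the 1 MCAO rat above the lowest Sham rat. Col19a1, made by subsets of neurons, fell by 0.50 (SE 0.15; adjusted p = 0.0222), from 7.57, 7.92, 7.88, 7.97 and 7.51 to 6.81 to 7.70 (median 7.35). MCAO 2 again overlapped Sham, and the call was lost without Sham 2, Sham 3 or Sham 4 (adjusted p = 0.0551 to 0.0576). In the other direction, Col16a1, a fibril-associated collagen, rose by 0.37 ± 0.09 (adjusted p = 0.00896), from 7.63, 7.89, 8.02, 7.75 and 7.72 to 7.86 to 8.34 (median 8.22). MCAO 4 was the lowest of the 7 and overlapped Sham. Col12a1 (0.30 ± 0.14, adjusted p = 0.115) read 6.94, 7.31, 7.31, 7.34 and 7.16 in Sham and 7.15 to 7.94 (median 7.54) in MCAO, with overlapping groups, and Col9a3, a chain of cartilage collagen IX, differed by -0.19 ± 0.09 (adjusted p = 0.121). Col9a3 passed without Sham 1 (adjusted p = 0.0299). Near-constant genes were Col9a2, Col13a1, Col14a1, Col20a1, Col22a1, Col23a1 and Col26a1.

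The matricellular proteins Sparc and Sparcl1 (hevin) are related in sequence and moved apart. Sparcl1 (Entrez Gene 25434), secreted by astrocytes and neurons and known to promote synapse formation, read 12.74, 12.74, 12.75, 12.80 and 12.67 in Sham and 12.29 to 12.63 (median 12.42) in MCAO. It fell by 0.29 (SE 0.06; adjusted p = 0.00497), and all MCAO values lay below all Sham values. Sparc (Entrez Gene 24791), a collagen-binding protein that counters hevin at synapses, stood at 10.85, 10.73, 10.68, 10.82 and 10.82 in Sham and 10.62 to 11.49 (median 11.19) in MCAO. It rose by 0.37 ± 0.12 (adjusted p = 0.0327), with 6 MCAO rats above the Sham range and MCAO 2 below it. This call was lost without any of MCAO 3, 4, 5 and 6 or Sham 2, 3, 4 and 5 (adjusted p = 0.0518 to 0.077), and the second Sparc probe set differed by only 0.10 ± 0.07. Thbs2, a thrombospondin, was near-constant.

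The rats differed in how far these genes departed from the Sham mean. Over the 17 genes that rose, the median departure was 1.24 in MCAO 6 and 1.10 in MCAO 3, and 0.44 in MCAO 7 and 0.19 in MCAO 4. MCAO 6 had the highest MCAO value for 12 of the 17 genes and MCAO 4 the lowest for 12. MCAO 4 lay above the Sham range for 8 of the 17, whereas MCAO 3, 5, 6 and 7 did so for all 17. For the 6 genes that fell, the median departure was smallest in MCAO 2 (-0.10) and largest in MCAO 3 (-0.65). MCAO 3 and MCAO 6 (-0.57 for the genes that fell) thus departed most in both sets of genes. The order of the rats was not identical, as MCAO 2 departed least only for the genes that fell. All genes of a rat come from 1 RNA sample, so these counts are not independent. The SD was larger in MCAO than in Sham for 34 of the 38 genes (89.5%, against 89.4% of all varying genes).

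**Figure D3:**
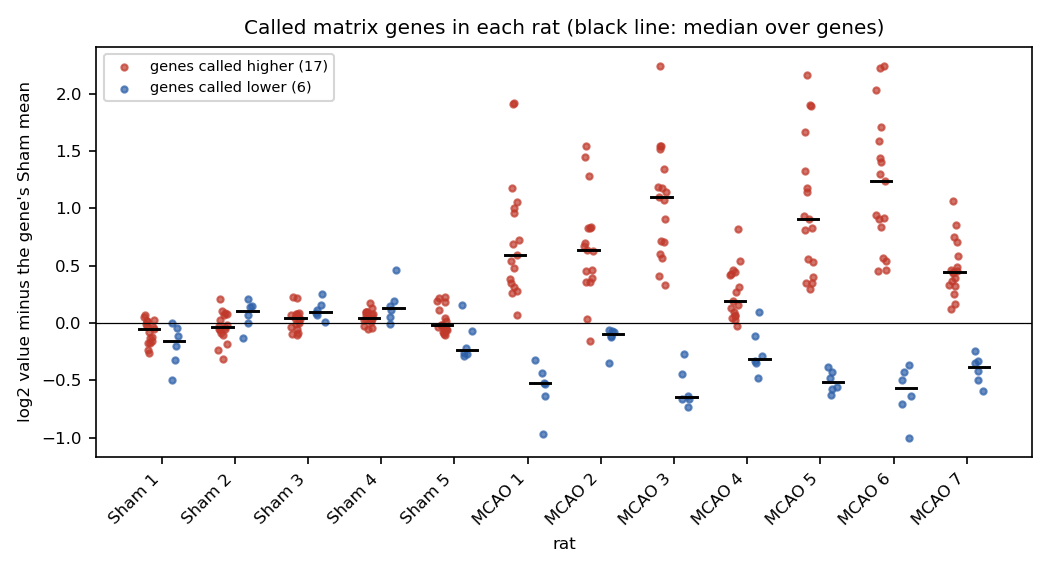
Log2 value minus the gene's Sham mean for the 17 genes called higher (red) and the 6 called lower (blue) in each of the 12 rats, with the median over genes as a black line. The genes were selected by this comparison, so the separation of the groups is a description. The median of the red points is highest in MCAO 6 (1.24) and lowest among MCAO rats in MCAO 4 (0.19).

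Where a gene had several probe sets, they often differed in what they could show. Of 25 such genes, 9 had all probe sets varying, 8 had a mixture and 8 had near-constant ones throughout. The paired probe sets of Lox (1.58 and 1.84), Fbn1 (1.13 and 1.31), Col4a1 (0.84 and 1.04), Lamc1 (0.54 and 0.49) and Col18a1 (0.51 and 0.28) were all called higher in the fit over probe sets. Both Lox probe sets, the second Fbn1 probe set and the dimmer Col15a1 probe set entered that fit through their MCAO values alone. Their calls add no support. The probe sets of Col1a2 (0.04 and -0.20) and Col5a2 (0.11 and -0.06) differed in sign, and neither of either pair passed. In that fit, 23 of 48 varying member probe sets were higher and 6 lower, against 37% and 30.7% of all varying probe sets. The 23 include the 4 probe sets that passed the filter through the MCAO arrays alone.

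**Figure D4:**
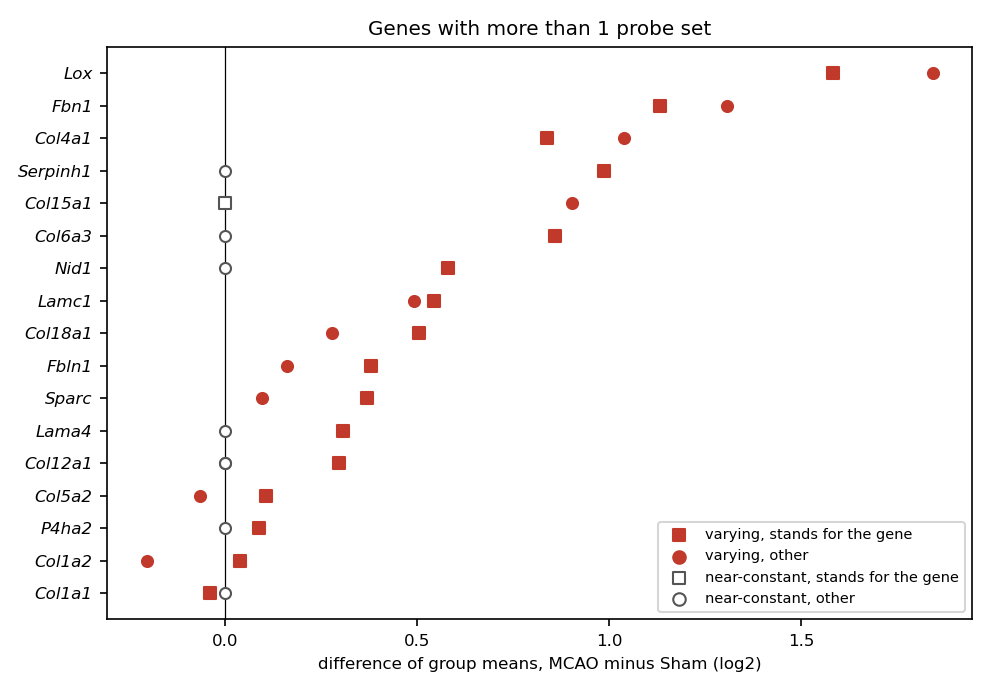
Difference of group means (MCAO minus Sham, log2) for each probe set of the 17 genes with more than 1 probe set of which at least 1 varied. Filled symbols varied and open symbols were near-constant. Squares mark the probe set that stood for the gene. For Col15a1 the square is open at 0 while the other probe set lies at 0.90.

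Other genes of matrix biology, from lists set by function, were compared in the same fit. The lists were chosen with earlier results of these data known, so their counts are a description and add no support. For comparison, 35.2% of all varying genes were called higher and 34.2% lower, with a median of 0.03. Among genes of collagen maturation outside the members, 7 of 10 varying genes rose and 1 fell, with a median of 0.36. They were led by Tgm2, a transglutaminase that crosslinks matrix (1.48 ± 0.19, adjusted p = 0.000864), and P4hb, the beta subunit of prolyl hydroxylase (0.90 ± 0.13, adjusted p = 0.00136). Of 11 varying collagen and laminin receptor genes 7 rose and 1 fell (median 0.65), led by the hyaluronan receptor gene Cd44 (2.29 ± 0.29) and the syndecan gene Sdc4 (1.07 ± 0.15). Of 21 varying genes of matrix-degrading enzymes and inhibitors 15 rose and 5 fell (median 0.67), with Timp1 (4.21 ± 0.47), a metalloproteinase inhibitor, and the protease gene Adamts1 (2.51 ± 0.28) first. Proteoglycans and other matrix-associated genes divided evenly, with 8 higher and 9 lower of 23 (median -0.06). The strongest statistics among them belonged to Spock3 (-0.55 ± 0.05) and Spock1 (-0.37 ± 0.06), proteoglycans of neurons.

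Markers of the cells that make this matrix did not move as a block. The counts below stand beside 35.2% of all varying genes called higher and 34.2% called lower. Of 10 varying endothelial markers 5 were higher and 3 lower (median 0.27), with Slc2a1 (0.65) and Slco1a4 (-0.92) the strongest. The log2 of the signal summed over all tested endothelial markers was 11.94 to 12.19 in MCAO and 11.84 to 12.12 in Sham. This sum and those below include any near-constant markers, which add nearly the same amount in every rat. The brightest probe sets weigh most in such a sum, so it does not measure the amount of a cell type. The oligodendrocyte sum holds Mbp, near-constant at 13.62 in both groups. Of 6 varying markers of pericytes and smooth muscle 2 were higher and 1 lower (median -0.13), with Tagln (1.56) and Vtn (-0.65) first, and summed values of 10.95 to 11.39 against 10.83 to 11.07. Of 13 varying markers of meningeal and perivascular fibroblasts 4 were higher and 2 lower (median 0.03), with Mgp (1.49) and Slc22a6 (-0.73) first, and summed values of 12.38 to 12.97 against 12.22 to 12.67. Astrocyte markers gave 1 higher (Gfap, 1.91) and 5 lower, Aldh1l1 (-0.78) first, of 8, with summed values of 14.69 to 14.94 against 14.74 to 14.80. The list of blood-borne myeloid markers was higher for all 8 varying genes, with Cd14 (3.13) and Itgam (0.92) first, and summed values of 11.25 to 12.38 against 10.15 to 10.41. Cd14 and Itgam are not restricted to blood-borne cells, so their rises do not tell infiltrating cells from microglia. S100a9 (1.65), S100a8 (0.99), Lyz2, Plac8, Il1r2 and Ccr1 rose too, and the groups were fully apart for all 8 genes. The part of infiltrating cells and of microglia in these rises was not tested. Neuronal markers were lower for 6 of 10, with Stmn2 (-0.28) and Neurod6 (-0.69) first and a summed value of 14.41 to 14.72 against 14.80 to 14.88, beside the falls of Col25a1 and Col19a1. Microglia markers gave 1 higher and 2 lower of 4, with P2ry12 (-1.26) and Tmem119 (-0.52) first and sums of 10.25 to 10.73 against 10.64 to 10.88. Oligodendrocyte markers gave 3 lower of 7, with Ermn (-0.43) and Opalin (-0.53) first and sums of 14.80 to 14.98 against 14.83 to 15.02. Precursor markers gave 1 lower of 3, Olig1 (-0.33), with Cspg4 near-constant, and sums of 11.24 to 11.73 against 11.54 to 11.70. The part of any cell type in the matrix changes was not tested, and fewer cells of a type cannot be told apart from less RNA per cell in bulk tissue.

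All neuron, astrocyte and oligodendrocyte markers found on the array passed the filter. So did 12153 of all 14217 genes with a single-gene probe set, so this is a weak check of the brain label. The 3' minus 5' signal of the beta-actin controls, a measure of RNA integrity, averaged 1.36 ± 0.07 (SD, n = 7) for the MCAO arrays and 1.43 ± 0.03 (SD, n = 5) for the Sham arrays (exact two-sided permutation test over 792 splits, p = 0.077). Its part in the results was not tested. No 2 arrays held identical values.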

How the data were processed

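Messenger RNA was measured in 12 rat brain hemispheres with 1 array each, and the groups were taken from the sample titles. The authors deposited 1 table of log2 values; the base was inferred from the range of the values. The sources used here do not name the software for background correction, summarization or normalization. Biotin-labelled cRNA came from 100 ng of total RNA, per the labels' protocols. Array medians lay between 7.23 and 7.27, and values were used as deposited.

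Genes were named from the platform annotation, which gave 20826 probe sets with 1 gene, 436 with several and 9780 with none (57 controls apart). Probe sets were kept where 5 or more arrays exceeded 6.61, the 25th percentile of all values, and the probe set with the highest mean stood for its gene, which left 12153 genes. Near-constant means an SD over the 12 arrays under 0.01. The comparison used limma (version 3.58.1, R version 4.3.3), with lmFit and then eBayes with an intensity trend. Tests were two-sided, p-values were adjusted by the Benjamini-Hochberg method across every gene tested, and calls needed an adjusted p under 0.05. A fit over all 17238 filtered single-gene probe sets was made in the same way. On simulated data with 12153 genes, the fit recovered 24%, 60%, 96% and 100% of planted log2 differences of 0.25, 0.5, 1 and 2, with 5 false calls among 145. The simulation changed only a small part of the genes and gave both groups the same SD, unlike these data. Its rates need not hold here.

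Every member gene is named, and the 3 varying members with the strongest limma statistic in each role are given by rat. The 2 strongest members are named from each related list. The members and lists were chosen with earlier results of these data known. Alternatives changed the scaling, the filter, the choice of probe set, the variance model, the weights, the test, the replicate block and the set of arrays. RNA integrity was compared as the 3' minus 5' signal of the beta-actin controls. The control rows of MCAO 6 were displaced by 12 positions and were realigned first (40 of 40 near-constant controls then matched the other arrays within 0.05, against 0 before). Genome positions and promoter sequences come from RefSeq (GRCr8). The number of arrays limits the precision.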

Additional observations from a re-analysis of the deposited data

Results flagged for a closer look

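Among 76 sets of values (38 varying genes in 2 groups), 6 held a rat far from the others of its group, judged by its gap to the nearest value as a share of the group's range. Chance alone flags about 1 in 20 groups. Of the 6, 3 concerned MCAO 2, which was the highest MCAO rat for Col24a1 (6.82, next 6.41), P4ha2 (8.21, next 7.94) and Col6a1 (7.95, next 7.59). MCAO 4 was the highest MCAO rat for Col4a5 (8.45, next 8.09). Sham 1 was the lowest Sham rat for Lamb2 (7.28, next 7.64), and Sham 5 the highest for Col8a2 (8.04, next 7.44). Of these genes, Col24a1 and Col4a5 were called lower and the other 4 were not called.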

How the results depend on the processing

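For the 38 varying genes, 1018 values were recomputed under alternatives, and 925 kept both their direction and their side of the threshold. Of the 23 called genes, 9 were called under every alternative that gave them a value (Fn1, Tnc, Lox, Serpinh1, Col4a1, Col6a3, Col8a1, Col25a1 and Sparcl1), and none changed direction. Serpinh1 gave no value without _x_at and _s_at probe sets. Counts of genes higher ranged from 14 to 20 and of genes lower from 2 to 7 when single arrays were left out, which is 36.8% to 52.6% and 5.41% to 18.4% of varying members. The shares of all varying genes moved too, from 29.5% to 40.4% higher and from 27.8% to 36.9% lower. Genes called lower numbered 3 without MCAO 5 or Sham 2, and 2 without Sham 3 or Sham 4. With the replicate block (numbers 1 to 5 as pairs), 9 genes were higher and 2 lower, and 13 probe sets higher and 2 lower. Of the 23 calls 13 were lost, 9 of genes higher and 4 of genes lower, and Col3a1 was gained (adjusted p = 0.032). Over all varying genes 22.6% were then higher and 21.2% lower. The same 10 arrays without the block, added after the data were seen, gave 2 genes lower, 2 probe sets lower and 14 genes higher (27% and 28.6% of all varying genes lower and higher). The block alone ended 6 of the calls (Col4a2, Col16a1, Fbln2, Fbn1, Lama4 and Lamc1; adjusted p = 0.0505 to 0.084). Deviations of same-numbered arrays from the group means correlated across genes at 0.32, 0.54, -0.33, -0.05 and 0.16 for numbers 1 to 5, and 3 of 5 MCAO arrays matched their own number best. Not all pairs correlated and the labels tie no number to a shared animal, batch or day, so the numbers were not treated as pairs. Signs turned for 4 genes that were not called: Col1a1 (0.044 with array weights, -0.11 to 0.0077 without single arrays), Col1a2 (-0.082 with the mean of the probe sets, -0.054 to 0.11 without single arrays), Col5a2 (-0.064 with the most variable probe set) and Col6a1 (-0.16 to 0.042 without single arrays). The causes were not tested. Array weights gained 8 calls (Col3a1, Col8a2, Col9a3, Col12a1, Fbln1, Lamb2, Lamb3 and Loxl1) and lost none, with 45.6% of all varying genes higher and 42% lower. Sparc did not pass with the mean of its probe sets, and Sparc, Nid1 and Col4a5 did not pass in the exact rank-sum test. Without MCAO 6 the difference in RNA integrity was -0.06, as with it. Near-constant probe sets and the number of arrays limit what can be shown.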
